A study of Mus musculus with 4 samples.

Results

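The genes described here encode the initiation and elongation factors that carry cytoplasmic protein synthesis in mouse cells, together with kinases, inhibitors and a methyltransferase that act on those factors. They were chosen by symbol: a gene qualified when its symbol began with Eif or Eef followed by a digit and did not mark a pseudogene with -ps. This gave 61 of 24190 symbols, and all 61 were among the 14379 genes that reached 1 TPM in 2 or more of the libraries. TPM is a share of transcripts scaled by length, with a fixed total per library, summed here over the transcripts of a gene. The symbol rule also admits proteins that are not factors, such as Eef1e1, a scaffold protein of the aminoacyl-tRNA synthetase complex, and Eif4enif1, which carries eIF4E into the nucleus.

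The study sequenced poly-A RNA from 4 sorted populations of the mouse embryonic stem cell line E14 (ES-E14TG2a, male), 1 library each. All cells were grown without serum in the presence of a MEK inhibitor (PD0325901) and a GSK3β inhibitor (CHIR99021). Each of 2 stable clonal lines carried an integrated Zscan4c promoter, which is active in the small share of such cells that transcribe genes of the cleaving mouse embryo. In one line the promoter drove GFP (here the GFP-only line), and in the other it drove GFP joined to Zscan4c (here the fusion line). GFP-positive cells, called 2C-like in the labels, were compared with GFP-negative cells, called pluripotent, in each line, and each line is 1 construct in 1 clone, so that construct and clone cannot be told apart.

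Initiation starts when eIF2 brings the initiator tRNA to the small ribosomal subunit with the help of eIF1, eIF1A, eIF3 and eIF5, while eIF4E, eIF4G and eIF4A prepare the capped end of the mRNA. Phosphorylation of eIF2α by any of several stress kinases blocks the recycling of eIF2 by eIF2B and lowers protein synthesis across the cell. During elongation eEF1A delivers aminoacyl-tRNA, the eEF1B subunits reload eEF1A with GTP, eEF2 moves the ribosome along the mRNA, and eIF5A relieves stalled ribosomes. 2C-like cells are known for low protein output and for transcripts of the early embryo, among them genes that resemble Eif1a.

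Each population is 1 library, so no value below has a replicate error, and read depth is unknown because TPM keep no counts. Ratios were taken after adding 1 TPM and are in log2 units, so changes of low genes come out too small, and 2-fold or more on that scale is used as a description and not as a test. The GFP-negative library from the GFP-only line stood apart: 48.4% of all symbols were listed at 0 there, against 11.6% to 19.5% in the other 3 libraries. Of the 61 translation genes, 5 were listed at 0 in that library and 0 in any other, and the annotated transcript with the longest coding sequence was listed at 0 for 19 of 61 genes there, against 3, 3 and 7 in the others. The 2-fold count and the median ratio of the GFP-only line are therefore also given against the GFP-negative library from the fusion line, where line and GFP status cannot be told apart. Of the listed markers of 2C-like cells, 13 of 13 were 2-fold or more higher in GFP-positive cells of both lines. They summed to 1304 and 2470 TPM in GFP-positive cells and 12.6 and 13.9 TPM in GFP-negative cells. This count is no independent check of the sort. The list holds Zscan4 genes, the sort used a Zscan4c promoter, and the fusion construct carries Zscan4c itself. The list was also chosen with earlier results of these data known. Of 8 pluripotency genes, which summed to between 2919 and 3550 TPM in all 4 libraries, 2 were 2-fold or more higher in GFP-positive cells of both lines and 0 were lower in both. Klf4 passed 2-fold in opposite directions, with log2 ratios of -1.42 in the GFP-only line and 1.54 in the fusion line. Of 5 fibroblast markers, Col1a1 and Col1a2 were at 0.114 TPM or less throughout and Thy1 was at 11.9 TPM and 7.27 TPM among GFP-positive cells and listed at 0 in GFP-negative cells. Primitive endoderm markers summed to 2.22 and 3.07 TPM in GFP-positive cells and to at most 0.441 TPM in GFP-negative cells, and trophectoderm markers to 33.4 and 23.3 TPM in GFP-positive cells and 39.4 and 34.0 TPM in GFP-negative cells. The trophectoderm sum was made up of Tfap2c and Krt8. Tfap2c was at 24.9 and 23.3 TPM in GFP-positive cells, against 39.4 and 34.0 TPM in GFP-negative cells. Krt8 was at 8.51 TPM in GFP-positive cells from the GFP-only line and listed at 0 in the other 3 libraries. Cdx2 and Gata3 were not analysed here. The part of such cells in the results was not tested. In bulk RNA, fewer cells of a type and less RNA per cell cannot be told apart.

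As a group, the translation genes kept similar levels in GFP-positive and GFP-negative cells. They summed to 17254 TPM in GFP-positive cells from the GFP-only line, against 15096 TPM in its GFP-negative cells. The sums in the fusion line were 16780 TPM in GFP-positive cells, against 16655 TPM in GFP-negative cells. These sums were 2.24% to 2.52% of all listed TPM, and without Eef1a1, the most abundant of the genes, they were 11776 and 11537 TPM in GFP-positive cells, against 13324 and 11112 TPM in GFP-negative cells. The median log2 ratio of the 61 genes, GFP-positive over GFP-negative, was 0.02 in the GFP-only line, against 0.32 over all 14379 genes, and 0.15 in the fusion line, against 0.15 over all genes. In the fusion line 43 of the 61 genes were above 0 and 18 below, against 9653 above and 4720 below among all genes. Scaling each library by its median ratio, which brings the median of all genes near 0 by construction (0.0027 in the fusion line), gave a median of -0.01 for the 61 genes there.

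Fewer of the translation genes than of all genes passed 2-fold. In the GFP-only line 15 of 61 did, 13 higher and 2 lower in GFP-positive cells, where 43.3% of all genes passed (37.4% higher and 5.88% lower). In the fusion line 4 of 61 passed, all 4 higher, where 13.3% of all genes passed (9.52% higher and 3.79% lower). Only 2 genes, the eIF2α kinase genes Eif2ak2 and Eif2ak3, were 2-fold or more higher in GFP-positive cells of both lines (6.58% of all genes), and 0 were lower in both (0.695%). Neither kinase gene passed in both lines with a pseudocount of 5 TPM (1.98% of all genes higher in both) or under quantile normalization (2.20%), and both lay below a mean of 10 TPM. Eif4e was 2-fold or more lower in both lines under quantile normalization (1.65% of all genes) and with the single highest transcript per gene (1.16%). Conversely, 39 of 61 genes (63.9%) in the GFP-only line and 50 of 61 (82.0%) in the fusion line stayed within 0.5 log2 units, against 41.0% and 71.4% of all genes. Against the GFP-negative library from the fusion line, GFP-positive cells from the GFP-only line had 4 genes past 2-fold in place of 15: Eif2ak2, Eif2ak3 and Eif4g3 higher and Eif3c lower. The share of all genes fell as well, to 13.8% in place of 43.3% (1356 higher and 626 lower). The same counts were also taken among genes with mean levels of 10 TPM or above, where 8 of 53 passed in the GFP-only line (28.1% of all such genes) and 2 of 53 in the fusion line (6.93%).

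**Figure D1:**
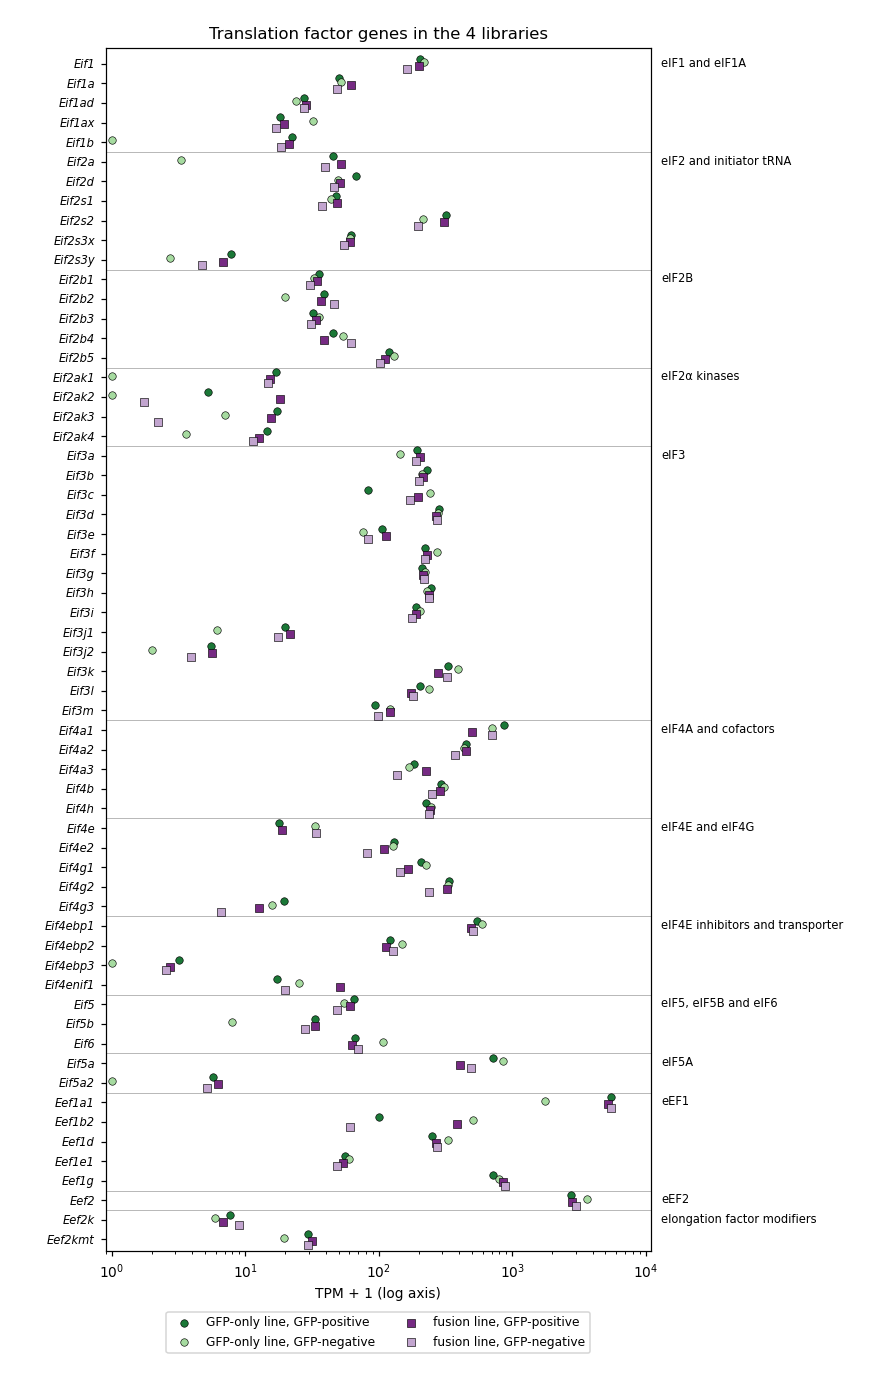
Levels of the 61 translation factor genes in each library, as TPM + 1 on a log axis, ordered by factor group from top to bottom. Circles stand for the GFP-only line and squares for the fusion line, dark for GFP-positive and pale for GFP-negative cells. Most genes show 4 points close together, and the 5 pale circles at the left edge are genes listed at 0 in the GFP-negative library from the GFP-only line.

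**Figure D2:**
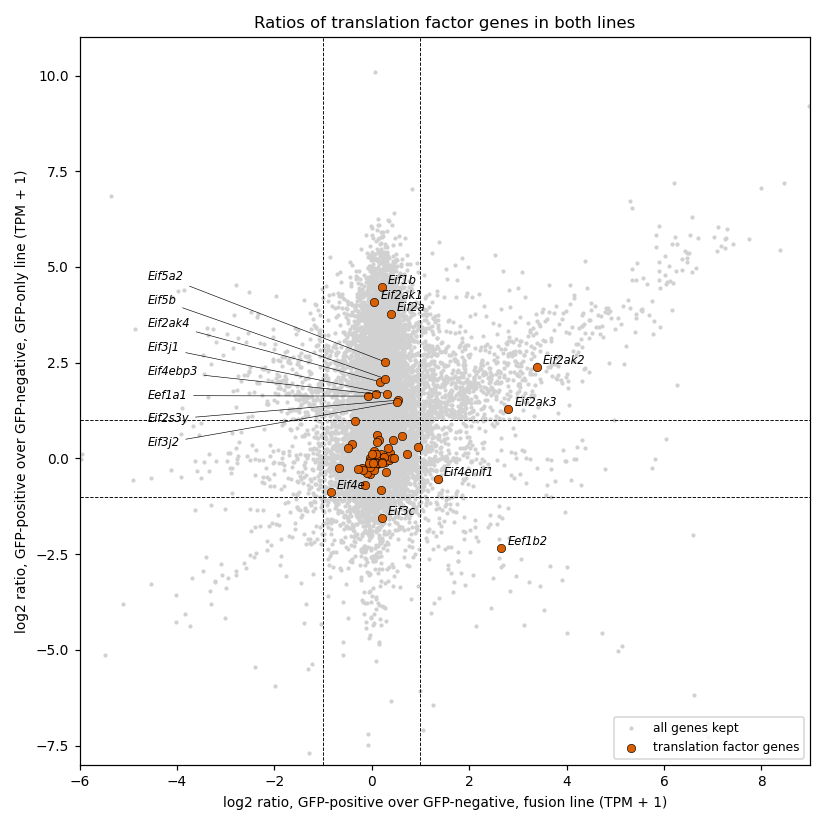
Log2 ratio of TPM + 1, GFP-positive over GFP-negative cells, in the fusion line (horizontal axis) and the GFP-only line (vertical axis). Grey points are the 14379 genes kept and orange points the 61 translation factor genes, with dashed lines at 2-fold. Eif2ak2 and Eif2ak3 lie past 2-fold in both lines, Eef1b2 lies past it in opposite directions, and the tall grey column holds genes low or at 0 in the GFP-negative library from the GFP-only line.

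Over both lines, limma (GFP status and line as terms, two-sided, Benjamini-Hochberg adjustment over 14379 genes, 1 residual degree of freedom) called 0 of the 61 genes at an adjusted p under 0.05, and 0 of all genes. With 1 residual degree of freedom, this count of 0 does not show that the genes were alike. At an unadjusted p under 0.05 limma gave 3 of 61 genes, against 6.76% of all genes. These were Eif2s2 at a log2 ratio of 0.61 (SE 0.13) with an adjusted p of 0.460 in limma, Eif4e at -0.86 (SE 0.29) with an adjusted p of 0.683 in limma, and Eif2ak2 with an adjusted p of 0.496 in limma. The fitted log2 ratio of Eif2ak2, 2.89 with SE 0.71, rests in part on a library where it is listed at 0 and depends on the pseudocount. The error of this fit combines the disagreement between the lines with a spread that limma shares over all genes.

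The eIF2α kinases were the group with the largest difference. The 4 genes summed to 50.03 and 57.8 TPM in GFP-positive cells from the GFP-only and fusion lines, against 8.67 and 26.2 TPM in GFP-negative cells. They act upstream of eIF2: Eif2ak1 (HRI) answers to haem shortage, Eif2ak2 (PKR) to double-stranded RNA, Eif2ak3 (PERK) to unfolded proteins in the endoplasmic reticulum, and Eif2ak4 (GCN2) to uncharged tRNA. Eif2ak3 was at 16.3 and 14.6 TPM in GFP-positive cells from the GFP-only and fusion lines, against 6.07 and 1.23 TPM in their GFP-negative cells. Both GFP-positive libraries lay above both GFP-negative libraries, by log2 ratios of 1.29 in the GFP-only line and 2.81 in the fusion line. Eif2ak2 was at 4.25 and 17.2 TPM in GFP-positive cells from the GFP-only and fusion lines, against a value listed at 0 in GFP-negative cells from the GFP-only line and 0.731 TPM in those of the fusion line. The GFP-positive libraries were again the 2 higher ones, but they differed from each other by a log2 ratio of 1.79, fusion over GFP-only line. The log2 ratio of Eif2ak2 within the fusion line was 3.39, and in the GFP-only line no fold is given because its GFP-negative value is listed at 0.

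For Eif2ak3 in both lines and Eif2ak2 in the fusion line, the full-length coding transcripts carried most of this difference. Eif2ak3-201, with a coding sequence of 3342 bases, was at 14.9 TPM and 13.5 TPM among GFP-positive cells and listed at 0 in GFP-negative cells of both lines. Eif2ak2-201, with a coding sequence of 1545 bases, was at 2.05 TPM in GFP-positive cells from the GFP-only line and 15.4 TPM in those of the fusion line, and was also listed at 0 in both GFP-negative libraries. In GFP-positive cells from the GFP-only line the retained-intron transcripts Eif2ak2-202 and Eif2ak2-204 held another 1.42 and 0.768 TPM. What was left of Eif2ak3 in GFP-negative cells lay in short or intron-retaining transcripts, such as Eif2ak3-204 at 2.69 TPM in those of the GFP-only line. The other kinase genes did not share the pattern in both lines. Eif2ak1 had 16.1 TPM in GFP-positive cells, against a value listed at 0 in GFP-negative cells from the GFP-only line, and 14.4 TPM in GFP-positive cells, against 13.9 TPM in GFP-negative cells from the fusion line. Eif2ak4 had 13.4 TPM in GFP-positive cells, against 2.60 TPM in GFP-negative cells from the GFP-only line, and 11.7 TPM in GFP-positive cells, against 10.4 TPM in GFP-negative cells from the fusion line. Both were low or at 0 in a single library, the GFP-negative one of the GFP-only line. Aimp2, which lies partly over Eif2ak1 on the opposite strand, followed the same course, with 33.9 TPM in GFP-positive and 4.24 TPM in GFP-negative cells from the GFP-only line and 31.9 TPM in GFP-positive and 30.7 TPM in GFP-negative cells from the fusion line.

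The promoters of Eif2ak2 and Eif2ak3 are shown because these are the genes that were higher in GFP-positive cells of both lines. The sequences come from RefSeq on GRCm38.p6 and run from 100 bases before the annotated start to 30 bases after it, on the strand of the gene. Capitals mark GAAA, 2 bases of any kind and GAAA again, the core of the interferon-stimulated response element for which the PKR gene is known. Eif2ak2 is at chr17:78882543-78882672 on the minus strand and Eif2ak3 at chr6:70844415-70844544 on the plus strand.
Eif2ak2: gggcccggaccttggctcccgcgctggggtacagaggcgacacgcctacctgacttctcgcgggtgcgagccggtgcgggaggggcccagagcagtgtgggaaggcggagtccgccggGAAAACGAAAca
Eif2ak3: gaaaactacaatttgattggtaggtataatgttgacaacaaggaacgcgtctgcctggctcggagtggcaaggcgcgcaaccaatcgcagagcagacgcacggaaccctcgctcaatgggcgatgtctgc
In Eif2ak2 the match GAAAACGAAA begins 19 bases after the start, and the printed window of Eif2ak3 holds no match. Searched on both strands from 250 bases before to 50 bases after the start, the motif was present in 4 of the 49 translation genes with a promoter in the table (8.16%: Eif2ak2, Eif2s1, Eif2s3x and Eif3a), against 3.99% of all 27025 symbols. The 3 other genes with a match were near equal or modestly higher in GFP-positive cells, with log2 ratios between 0.015 and 0.42 in the GFP-only line and between 0.10 and 0.37 in the fusion line.

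The substrate of these kinases and its partners differed less. The genes for eIF2 and other initiator tRNA carriers summed to 547 and 520 TPM in GFP-positive cells from the GFP-only and fusion lines, against 369 and 376 TPM in GFP-negative cells. Most of this lay in Eif2s2, which encodes the β subunit. Eif2s2 was at 321 and 306 TPM in GFP-positive cells from the GFP-only and fusion lines, against 213 and 197 TPM in their GFP-negative cells. Both GFP-positive libraries were above both GFP-negative ones, with log2 ratios of 0.59 and 0.63, below 2-fold. Gm9892, a processed pseudogene on chromosome 8 with 99.5% identity to Eif2s2, had 248 and 229 TPM in GFP-positive cells and 110 and 150 TPM in GFP-negative cells from the GFP-only and fusion lines, so that reads of gene and pseudogene may be split between them. With both added together the log2 ratios were 0.81 and 0.62.

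Eif2s1, the α subunit that the kinases phosphorylate, was nearly level. Eif2s1 was at 46.9 and 47.7 TPM in GFP-positive cells from the GFP-only and fusion lines, against 42.6 and 36.8 TPM in their GFP-negative cells. The γ subunit has copies on both sex chromosomes in the mouse, and the cells are male. Eif2s3x was at 61.1 and 59.8 TPM in GFP-positive cells from the GFP-only and fusion lines, against 60.5 and 54.2 TPM in their GFP-negative cells. Its Y-linked partner was much lower. Eif2s3y was at 6.83 and 5.82 TPM in GFP-positive cells from the GFP-only and fusion lines, against 1.73 and 3.72 TPM in their GFP-negative cells. The log2 ratio of Eif2s3y, 1.52 in the GFP-only line and 0.53 in the fusion line, was larger in the line whose GFP-negative library stood apart. Under quantile normalization its value in the GFP-only line was -0.002086.

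Eif2a and Eif2d encode proteins that can bring tRNA to the ribosome without eIF2. Eif2a had 44.3 TPM in GFP-positive cells, against 2.31 TPM in GFP-negative cells from the GFP-only line, and 51.2 TPM in GFP-positive cells, against 38.7 TPM in GFP-negative cells from the fusion line. The coding transcript Eif2a-201 was listed at 0 in GFP-negative cells from the GFP-only line and stood at 37.2 to 46.2 TPM in the other 3 libraries. Eif2d had 67.2 TPM in GFP-positive cells, against 48.2 TPM in GFP-negative cells from the GFP-only line, and 50.2 TPM in GFP-positive cells, against 44.97 TPM in GFP-negative cells from the fusion line. Thus Eif2a differed by 2-fold or more only where the comparison used the GFP-negative library from the GFP-only line.

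eIF2B, the exchange factor that the phosphorylated eIF2 inhibits, had near equal summed levels of 266 and 251 TPM in GFP-positive cells from the GFP-only and fusion lines, against 268 TPM in GFP-negative cells of either line. Eif2b5, its catalytic ε subunit, was the highest. Eif2b5 was at 118 and 111 TPM in GFP-positive cells from the GFP-only and fusion lines, against 129 and 101 TPM in their GFP-negative cells. The regulatory subunits Eif2b2 (β) and Eif2b4 (δ) varied more. Eif2b2 had 38.2 TPM in GFP-positive cells, against 19.0 TPM in GFP-negative cells from the GFP-only line, and 35.7 TPM in GFP-positive cells, against 45.7 TPM in GFP-negative cells from the fusion line. Eif2b4 had 44.7 TPM in GFP-positive cells, against 53.3 TPM in GFP-negative cells from the GFP-only line, and 38.1 TPM in GFP-positive cells, against 61.6 TPM in GFP-negative cells from the fusion line. Neither passed 2-fold, and the 2 lines gave Eif2b2 log2 ratios of opposite sign, 0.97 and -0.35. Eif2b1 and Eif2b3 stayed between 29.5 and 34.9 TPM in all 4 libraries.

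Among the factors that scan for the start codon, eIF1 and eIF1A, Eif1 was the highest. Eif1 was at 202 and 198 TPM in GFP-positive cells from the GFP-only and fusion lines, against 216 and 163 TPM in their GFP-negative cells. Its close paralog Eif1b was at 21.3 and 20.4 TPM in GFP-positive cells, at 17.6 TPM in GFP-negative cells from the fusion line, and listed at 0 in those of the GFP-only line. eIF1A is encoded by Eif1a and by the X-linked Eif1ax. Eif1a was at 49.6 and 61.3 TPM in GFP-positive cells from the GFP-only and fusion lines, against 51.0 and 47.7 TPM in their GFP-negative cells. Eif1ax was at 17.3 and 18.4 TPM in GFP-positive cells from the GFP-only and fusion lines, against 31.1 and 15.9 TPM in their GFP-negative cells. The higher GFP-negative value of Eif1ax in the GFP-only line came from the retained-intron transcript Eif1ax-202, at 17.2 TPM there and at 0.942 to 1.38 TPM elsewhere. Its coding transcript Eif1ax-201 stayed between 14.0 and 17.5 TPM in all 4 libraries. Eif1ad, an RNA-binding protein with a domain like that of eIF1A, stayed between 23.2 and 27.6 TPM.

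Eif1a itself was close to level, and genes on chromosome 12 that resemble it summed to higher levels in GFP-positive cells. The 6 listed genes there with at least 90% identity to Eif1a over at least 50% of their transcript (Gm2035, Gm2056, Gm2075, Gm5039, Gm6803 and Gm8332) summed to 634 and 513 TPM in GFP-positive cells from the GFP-only and fusion lines, against 7.58 and 11.4 TPM in GFP-negative cells. In the GFP-only line all 6 were higher in GFP-positive cells, at 59.6 to 233 TPM, against 0.122 to 2.44 TPM in GFP-negative cells. In the fusion line only Gm2035, Gm2056 and Gm6803 reached such levels, at 219, 130.3 and 157 TPM in GFP-positive cells, against 2.37, 0.745 and 0.702 TPM in GFP-negative cells. The other 3 stayed low there, with Gm2075 at 1.97 and 2.23 TPM, Gm5039 at 1.43 and 3.43 TPM and Gm8332 at 2.84 and 1.87 TPM in GFP-positive and GFP-negative cells. The identities of the 6 genes to Eif1a were 93.8% to 95.2%, so reads from shared stretches could be assigned to either. The value of Eif1a in GFP-positive cells is uncertain to that extent. Reads may also be split among the 6 genes, whose identities to each other were not measured here. Which of the 6 differed between the lines is therefore uncertain. Gm2056 and Gm6803 were also on the list of 2C-like markers above.

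The same search found 72 transcripts of other genes resembling 24 of the 61 genes, and the copies of Eif4a3 were also higher in GFP-positive cells. Eif4a3 encodes an RNA helicase of the exon junction complex and belongs to the eIF4A family. Eif4a3 was at 182 and 226 TPM in GFP-positive cells from the GFP-only and fusion lines, against 167 and 137 TPM in their GFP-negative cells. The 3 similar genes on chromosome 6, Gm5580, Gm8994 and Gm5576, summed to 346 and 761 TPM in GFP-positive cells from the GFP-only and fusion lines, against 20.3 and 13.1 TPM in GFP-negative cells. Gm5580 alone had 115 and 258 TPM in GFP-positive cells, against 6.94 and 2.62 TPM in GFP-negative cells. Gm5580-201 aligned to Eif4a3-201 with 96.4% identity over 1361 bases. To show how the gene and its copy differ, the first 90 bases from the start codon of Eif4a3-201 (GENCODE M21 on GRCm38, chr11:119299907-119299996, minus strand) stand beside the aligned bases of Gm5580-201 (chr6:116551164-116551253, plus strand), with the 9 differing bases in capitals.
Eif4a3-201: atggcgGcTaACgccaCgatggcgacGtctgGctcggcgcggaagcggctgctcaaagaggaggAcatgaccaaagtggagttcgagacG
Gm5580-201: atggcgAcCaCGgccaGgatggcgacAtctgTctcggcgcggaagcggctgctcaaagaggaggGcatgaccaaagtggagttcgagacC
The whole alignment holds 1312 identical bases, and reads from stretches without a differing base carry no mark of their source, so the log2 ratio of 0.72 for Eif4a3 in the fusion line, where the copies were highest, is uncertain. Gene and copies added together gave log2 ratios of 1.49 in the GFP-only line and 2.71 in the fusion line.

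**Figure D3:**
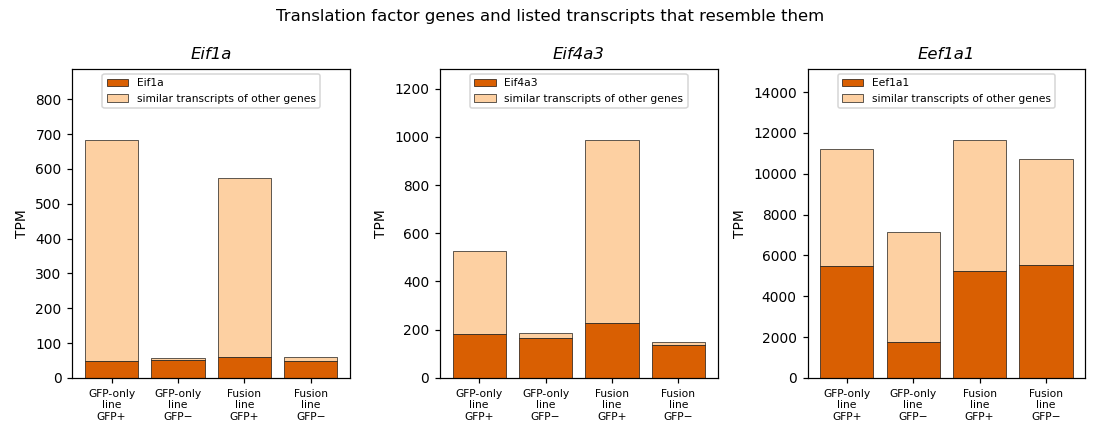
TPM of Eif1a, Eif4a3 and Eef1a1 (dark) stacked with the summed TPM of listed transcripts of other genes that resemble them (pale), in the 4 libraries with GFP+ for GFP-positive and GFP− for GFP-negative cells. The genes resembling Eif1a reach 634 TPM in GFP-positive cells from the GFP-only line and those resembling Eif4a3 reach 761 TPM in GFP-positive cells from the fusion line, while Eif1a and Eif4a3 differ less; transcripts resembling Eef1a1 are as abundant as the gene in all but the GFP-negative library from the GFP-only line, where they exceed it.

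eIF3, the large scaffold that binds the small subunit, is encoded by 12 core genes and the loosely bound eIF3j, which has 2 genes in the mouse. The 12 core genes summed to 2381 and 2431 TPM in GFP-positive cells from the GFP-only and fusion lines, against 2625 and 2364 TPM in GFP-negative cells. Within a library they spanned 81.8 to 329 TPM and 112 to 279 TPM in GFP-positive cells from the GFP-only and fusion lines, and 75.4 to 395 TPM and 82.2 to 322 TPM in GFP-negative cells. Eif3k was the highest in all 4 libraries. Eif3k was at 329 and 279 TPM in GFP-positive cells from the GFP-only and fusion lines, against 395 and 322 TPM in their GFP-negative cells. Eif3d, which can bind the mRNA cap, was level. Eif3d was at 280.1 and 267 TPM in GFP-positive cells from the GFP-only and fusion lines, against 277 and 274 TPM in their GFP-negative cells. Eif3e was somewhat higher in GFP-positive cells of both lines. Eif3e was at 105 and 112 TPM in GFP-positive cells from the GFP-only and fusion lines, against 75.4 and 82.2 TPM in their GFP-negative cells. Its log2 ratios were 0.48 and 0.44. The remaining core subunits apart from Eif3c (Eif3a, Eif3b, Eif3f, Eif3g, Eif3h, Eif3i, Eif3l and Eif3m) lay within 0.5 log2 units of equality in each line.

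Eif3c, a core subunit that contacts eIF1 and eIF5, was the exception. Eif3c had 81.8 TPM in GFP-positive cells, against 242 TPM in GFP-negative cells from the GFP-only line, and 196 TPM in GFP-positive cells, against 169.5 TPM in GFP-negative cells from the fusion line. The low value belonged to 1 library, the GFP-positive one of the GFP-only line, and the log2 ratios were -1.55 in the GFP-only line and 0.21 in the fusion line. The processed pseudogene Gm11224, with 94.5% identity to Eif3c, was at 32.1 TPM and 20.2 TPM among GFP-positive cells and 35.7 and 19.5 TPM in GFP-negative cells from the GFP-only and fusion lines. Adding it gave -1.28 and 0.19. Eif3c was named after its values were seen.

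The genes for eIF3j were listed at low levels. Eif3j1 had 18.9 TPM in GFP-positive cells, against 5.17 TPM in GFP-negative cells from the GFP-only line, and 20.8 TPM in GFP-positive cells, against 16.6 TPM in GFP-negative cells from the fusion line. Eif3j2 had 4.55 TPM in GFP-positive cells, against 1.01 TPM in GFP-negative cells from the GFP-only line, and 4.62 TPM in GFP-positive cells, against 2.94 TPM in GFP-negative cells from the fusion line. Both were lowest in GFP-negative cells from the GFP-only line, where the coding transcript Eif3j1-201 was at 0.199 TPM, against 14.6 to 17.8 TPM in the other 3 libraries. Under quantile normalization the log2 ratio of Eif3j2 in the GFP-only line was -0.45 in place of 1.47. The separately listed microRNA gene Gm27325 lies within Eif3j2 on the same strand, with 100% identity. It was at 28.9 and 30.4 TPM in GFP-positive cells from the GFP-only and fusion lines, against 22.9 and 27.8 TPM in GFP-negative cells. Reads of Eif3j2 may therefore be listed under Gm27325. With it added, the log2 ratios of Eif3j2 were 0.47 and 0.18, below 2-fold.

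The helicase eIF4A and its cofactors eIF4B and eIF4H summed to 2008 and 1703 TPM in GFP-positive cells from the GFP-only and fusion lines, against 1867 and 1697 TPM in GFP-negative cells. Eif4a1 had 861 TPM in GFP-positive cells, against 709 TPM in GFP-negative cells from the GFP-only line, and 501 TPM in GFP-positive cells, against 699.9 TPM in GFP-negative cells from the fusion line. Eif4a2 had 449 TPM in GFP-positive cells, against 437 TPM in GFP-negative cells from the GFP-only line, and 446 TPM in GFP-positive cells, against 374 TPM in GFP-negative cells from the fusion line. Neither passed 2-fold in sum, but this depended for Eif4a1 on how its transcripts were added. Weighting each transcript by its length gave Eif4a1 a log2 ratio of -1.52 in the fusion line and 0.29 in the GFP-only line. With coding transcripts only these were -8.62 and 0.79. The transcripts listed for Eif4a1 differed between the libraries. The coding Eif4a1-213 was at 751 TPM in GFP-positive and 433 TPM in GFP-negative cells from the GFP-only line, and at 0.554 TPM in GFP-positive and 610 TPM in GFP-negative cells from the fusion line. In GFP-positive cells from the fusion line the level was listed instead under Eif4a1-201, a transcript of 813 bases marked for nonsense-mediated decay, at 431 TPM. That transcript was at 1.33 TPM in GFP-positive and 38.7 TPM in GFP-negative cells from the GFP-only line, and at 1.55 TPM in GFP-negative cells from the fusion line. The pseudogene Eif4a-ps4, with 99.9% identity to Eif4a1, was at 539 TPM and 485 TPM among GFP-positive cells and 586 and 373 TPM in GFP-negative cells from the GFP-only and fusion lines, so the level of Eif4a1 is uncertain. Eif4b and Eif4h lay between 226 and 309 TPM in all 4 libraries.

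Eif4e encodes the cap-binding protein, the limiting part of the complex that recruits mRNA. Eif4e was at 17.1 and 17.9 TPM in GFP-positive cells from the GFP-only and fusion lines, against 32.4 and 32.7 TPM in their GFP-negative cells. The values within each population were nearly equal between lines, and both GFP-positive libraries lay below both GFP-negative ones, with log2 ratios of -0.89 and -0.84, short of 2-fold, though past it in both lines under quantile normalization and with the single highest transcript. This direction depended on how transcripts of different length were added. The long transcript Eif4e-201 (4991 bases) was at 10.8 and 9.79 TPM in GFP-positive cells from the GFP-only and fusion lines and listed at 0 in GFP-negative cells of both. The short transcript Eif4e-204 (1421 bases) was at 4.72 and 5.03 TPM in GFP-positive cells, against 19.5 and 24.9 TPM in GFP-negative cells. Both are annotated as coding, with coding sequences of 651 and 549 bases. Weighting each transcript by its length, which follows read numbers more closely than transcript numbers, gave log2 ratios of 0.70 and 0.38, of the opposite sign. Adding the X-linked pseudogene Gm7327, with 98.6% identity, left the TPM ratios at -0.61 and -0.60.

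RefSeq lists more than one start for Eif4e, and the second is shown because it holds CACGTG, the E-box bound by Myc, for which Eif4e is a textbook target. The window runs from 100 bases before to 30 bases after the start at chr3:138527168-138527297 on the plus strand of GRCm38.p6, with the E-box in capitals.
Eif4e: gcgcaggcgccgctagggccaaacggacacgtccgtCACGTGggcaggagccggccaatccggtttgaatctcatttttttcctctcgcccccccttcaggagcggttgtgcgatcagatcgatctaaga
The E-box begins 64 bases before the start. Eif4e-201 and Eif4e-204 begin upstream of the printed window, at chr3:138526179 and chr3:138526425. The window of the first RefSeq start, which spans the start of Eif4e-201, held no match. An E-box was present in 12 of the 49 translation genes with a promoter in the table (24.5%), against 8.09% of all symbols, when searched from 250 bases before to 50 bases after the start. The 12 genes with an E-box had median log2 ratios of -0.12 in the GFP-only line and -0.04 in the fusion line, and the others 0.12 and 0.21. These are counts of letters, and binding was not measured here.

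The other cap-binding gene, Eif4e2, encodes a homolog that competes for caps and represses translation. Eif4e2 was at 129.6 and 108 TPM in GFP-positive cells from the GFP-only and fusion lines, against 128 and 81.3 TPM in their GFP-negative cells. Eif4e3 and Eif4e1b were not analysed here. The eIF4E-binding proteins, which hold eIF4E away from eIF4G until mTORC1 phosphorylates them, were led by Eif4ebp1. Eif4ebp1 was at 548 and 490.4 TPM in GFP-positive cells from the GFP-only and fusion lines, against 592 and 507 TPM in their GFP-negative cells. Eif4ebp2 was at 121 and 112 TPM in GFP-positive cells from the GFP-only and fusion lines, against 149 and 126 TPM in their GFP-negative cells. The log2 ratios of both were within 0.5 of 0 in each line. Eif4ebp3 was at 2.20 and 1.73 TPM in GFP-positive cells, at 1.57 TPM in GFP-negative cells from the fusion line and listed at 0 in those of the GFP-only line. Eif4enif1 was high in a single library. Eif4enif1 had 16.4 TPM in GFP-positive cells, against 24.1 TPM in GFP-negative cells from the GFP-only line, and 50.2 TPM in GFP-positive cells, against 19.0 TPM in GFP-negative cells from the fusion line. Of the 50.2 TPM there, 24.3 TPM was listed under Eif4enif1-206, a coding transcript of 869 bases.

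The scaffold eIF4G is encoded by Eif4g1 and Eif4g3, and Eif4g2 encodes a related protein that lacks the eIF4E-binding region. Eif4g1 was at 205 and 166 TPM in GFP-positive cells from the GFP-only and fusion lines, against 224 and 143 TPM in their GFP-negative cells. Eif4g2 was at 333 and 325 TPM in GFP-positive cells from the GFP-only and fusion lines, against 328 and 236 TPM in their GFP-negative cells. Eif4g3 had 18.6 TPM in GFP-positive cells, against 14.8 TPM in GFP-negative cells from the GFP-only line, and 11.7 TPM in GFP-positive cells, against 5.56 TPM in GFP-negative cells from the fusion line. In sum Eif4g1 differed little between populations, but its transcripts did so in both lines and in the same direction. Eif4g1-210, a transcript of 5004 bases annotated as retained intron, was at 99.2 and 92.8 TPM in GFP-positive cells from the GFP-only and fusion lines, against 25.95 and 19.7 TPM in GFP-negative cells. The coding Eif4g1-202, of 5394 bases, ran the other way, with 22.7 and 16.7 TPM in GFP-positive cells, against 82.8 and 65.0 TPM in GFP-negative cells. The log2 ratios were 1.89 and 2.18 for Eif4g1-210 and -1.82 and -1.90 for Eif4g1-202. All coding transcripts of Eif4g1 together had 91.6 and 70.1 TPM in GFP-positive cells, against 180.2 and 121 TPM in GFP-negative cells, log2 ratios of -0.97 and -0.78.

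The transcripts share most of their exons and differ at the 5′ end. Of the 26 exons of Eif4g1-210, 24 are identical to exons among the 32 of Eif4g1-202. The first exon of Eif4g1-210 (chr16:20678276-20678674, plus strand, GRCm38) starts inside the intron before exon 7 of Eif4g1-202 and runs without a break into that exon, with 306 bases of intron ahead of it. The sequences on either side of the point where they join are printed because this short stretch tells the transcripts apart, with the shared exon in capitals and the 5′ part that differs in lower case.
Eif4g1-210: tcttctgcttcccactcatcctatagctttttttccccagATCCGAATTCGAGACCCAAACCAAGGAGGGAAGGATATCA
Eif4g1-202: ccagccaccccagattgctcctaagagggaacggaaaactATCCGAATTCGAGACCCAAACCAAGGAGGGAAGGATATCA
The lower-case part of Eif4g1-210 is the end of the intron, and that of Eif4g1-202 is the end of its exon before. The TPM do not say which of these junctions was read, since both transcripts share the rest, and reads were not analysed here.

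**Figure D4:**
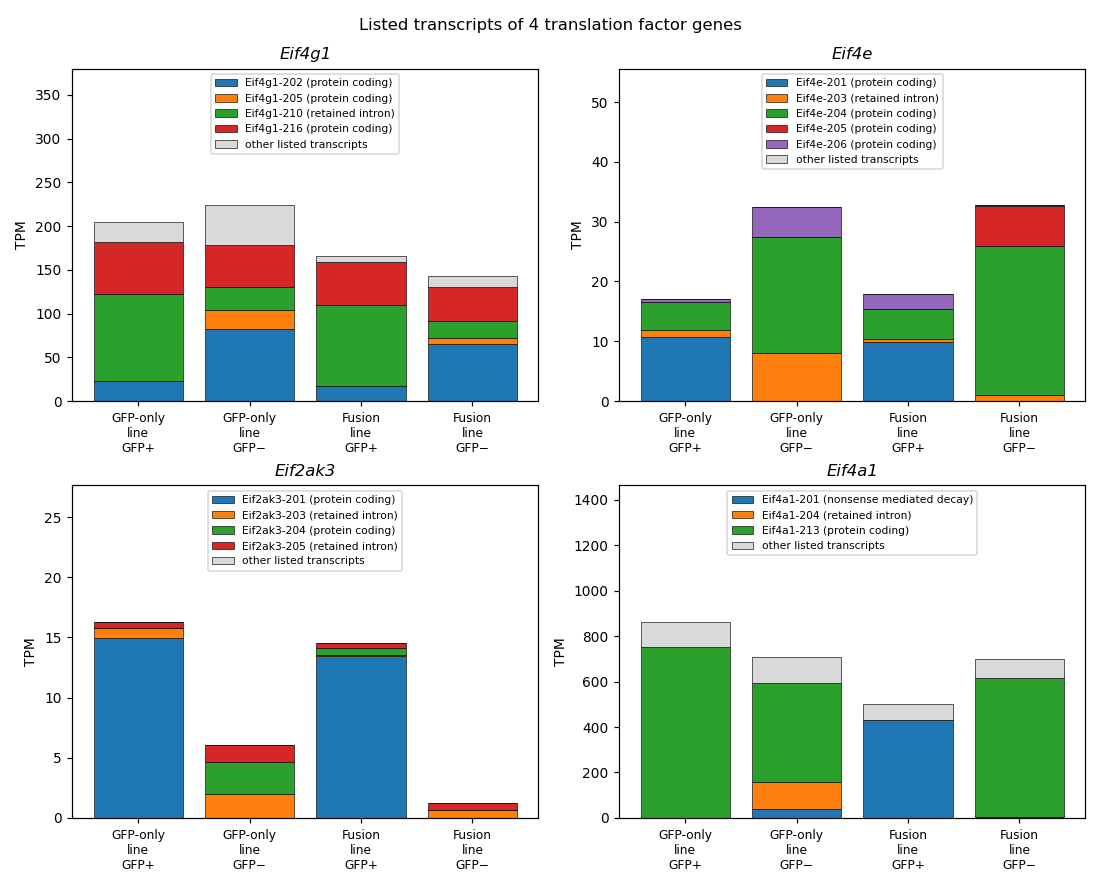
Stacked TPM of the listed transcripts of Eif4g1, Eif4e, Eif2ak3 and Eif4a1 in the 4 libraries, with GFP+ for GFP-positive and GFP− for GFP-negative cells. Eif4g1-210 is high in both GFP-positive libraries, Eif4e-201 and Eif2ak3-201 appear only in GFP-positive libraries, and Eif4a1-201 replaces Eif4a1-213 in GFP-positive cells from the fusion line.

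Such transcript differences were counted over all 184 listed transcripts of the 61 genes that reached 1 TPM in 2 or more libraries. Of these, 12 were 2-fold or more higher in GFP-positive cells of both lines (9.17% of all transcripts) and 8 were lower in both (2.53%), while 13 moved in opposite directions (7.73%). The 12 higher ones included Eif2ak2-201, Eif2ak3-201, Eif4e-201, Eif4g1-210, 2 coding transcripts of Eif4g3 and 4 transcripts of Eif4a2. The 8 lower ones included Eif4e-204, 3 coding transcripts of Eif4g1 and Eif5a-209. Eif4g3-215, the Eif4g3 transcript with the longest coding sequence, was at 6.17 and 4.98 TPM in GFP-positive cells from the GFP-only and fusion lines, against a value listed at 0 and 0.689 TPM in GFP-negative cells. Coding transcripts made up 95.8% and 90.5% of the summed TPM in GFP-positive cells and 92.0% and 90.4% in GFP-negative cells from the GFP-only and fusion lines.

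Among the factors that complete initiation, Eif5, the GTPase activator of eIF2, was slightly higher in GFP-positive cells. Eif5 was at 64.5 and 60.0 TPM in GFP-positive cells from the GFP-only and fusion lines, against 53.6 and 47.4 TPM in their GFP-negative cells. Eif5b, the GTPase that joins the subunits, was low in one library only. Eif5b had 32.6 TPM in GFP-positive cells, against 6.90 TPM in GFP-negative cells from the GFP-only line, and 32.5 TPM in GFP-positive cells, against 26.9 TPM in GFP-negative cells from the fusion line. Its coding transcript Eif5b-201, of 7797 bases, was listed at 0 in GFP-negative cells from the GFP-only line and at 25.1 to 30.2 TPM in the other libraries. Eif6 keeps the large subunit apart from the small one. Eif6 had 65.1 TPM in GFP-positive cells, against 106 TPM in GFP-negative cells from the GFP-only line, and 62.2 TPM in GFP-positive cells, against 68.7 TPM in GFP-negative cells from the fusion line. The log2 ratios of Eif6 were -0.70 and -0.14.

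eIF5A, the one protein modified with hypusine, is encoded by Eif5a and the rarer Eif5a2. Eif5a was at 715 and 404 TPM in GFP-positive cells from the GFP-only and fusion lines, against 859.9 and 493 TPM in their GFP-negative cells. Here the lines differed more than the populations, since GFP-positive cells from the fusion line were 0.82 log2 units below those of the GFP-only line and the log2 ratios within lines were -0.27 and -0.29. Eif5a-209, a coding transcript of 1259 bases, was at 6.75 and 0.102 TPM in GFP-positive cells, against 167 and 141 TPM in GFP-negative cells from the GFP-only and fusion lines. Most TPM of Eif5a lay in Eif5a-210, which encodes a protein of the same length and stood at 643 and 359 TPM in GFP-positive cells, against 641 and 311 TPM in GFP-negative cells. Eif5a2 was at 4.73 and 5.23 TPM in GFP-positive cells, at 4.14 TPM in GFP-negative cells from the fusion line and listed at 0 in those of the GFP-only line.

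Elongation factors were the most abundant of the 61 genes. Eef1a1, which encodes eEF1A1, ranked first of the 61 in 3 libraries and second in the GFP-negative library from the GFP-only line, behind Eef2. Eef1a1 had 5478 TPM in GFP-positive cells, against 1772 TPM in GFP-negative cells from the GFP-only line, and 5244 TPM in GFP-positive cells, against 5543 TPM in GFP-negative cells from the fusion line. Only that library was low, and the log2 ratios were 1.63 and -0.08. Another 15 listed transcripts resembled Eef1a1 and summed to 5753 and 6411 TPM in GFP-positive cells from the GFP-only and fusion lines, against 5379 and 5198 TPM in GFP-negative cells. With these added, the log2 ratios were 0.65 and 0.12. One of the 15, the separately listed microRNA gene Gm26377, lies on the same strand within Eef1a1 and was at 1777 and 2262 TPM in GFP-positive cells, against 1318 and 1492 TPM in GFP-negative cells, so reads of Eef1a1 may be listed under it. Eef1a2, the paralog of muscle and neurons, was not analysed here.

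Eef2 was level. Eef2 was at 2759.7 and 2786 TPM in GFP-positive cells from the GFP-only and fusion lines, against 3624 and 2997 TPM in their GFP-negative cells. Its log2 ratios were -0.39 and -0.11, and -0.37 and -0.11 with 3 similar transcripts of other genes added. Its kinase Eef2k, which halts elongation by phosphorylating eEF2, and Eef2kmt, which methylates it, were low. Eef2k had 6.75 TPM in GFP-positive cells, against 4.94 TPM in GFP-negative cells from the GFP-only line, and 5.82 TPM in GFP-positive cells, against 7.97 TPM in GFP-negative cells from the fusion line. Eef2kmt had 28.5 TPM in GFP-positive cells, against 18.5 TPM in GFP-negative cells from the GFP-only line, and 30.7 TPM in GFP-positive cells, against 28.3 TPM in GFP-negative cells from the fusion line. The coding transcripts again stood apart in one library: Eef2k-201 was listed at 0 and Eef2kmt-201 was at 0.984 TPM in GFP-negative cells from the GFP-only line, while the other 3 libraries had 5.00 to 5.81 TPM of Eef2k-201 and 25.9 to 28.7 TPM of Eef2kmt-201.

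Of the eEF1B exchange factor subunits, Eef1g and Eef1d differed little. Eef1g was at 713 and 849 TPM in GFP-positive cells from the GFP-only and fusion lines, against 798 and 883 TPM in their GFP-negative cells. Eef1d was at 249 and 268 TPM in GFP-positive cells from the GFP-only and fusion lines, against 329.6 and 273 TPM in their GFP-negative cells. Eef1b2, the catalytic subunit, was the only one of the 61 genes that was 2-fold or more apart in opposite directions in the lines (2.59% of all genes). Eef1b2 had 99.1 TPM in GFP-positive cells, against 507 TPM in GFP-negative cells from the GFP-only line, and 383 TPM in GFP-positive cells, against 59.7 TPM in GFP-negative cells from the fusion line. The GFP-positive cells from the GFP-only line and the GFP-negative cells from the fusion line were the low ones. Its coding transcripts summed to 7.43 TPM in GFP-positive and 302 TPM in GFP-negative cells from the GFP-only line, and to 107 TPM in GFP-positive and 12.2 TPM in GFP-negative cells from the fusion line. The unprocessed pseudogene Gm43712, with 98.9% identity, was at 246 TPM and 264 TPM among GFP-positive cells and 170 and 41.1 TPM in GFP-negative cells from the GFP-only and fusion lines. Adding it left log2 ratios of -0.97 and 2.67. Eef1e1 stayed between 48.0 and 58.5 TPM in all 4 libraries.

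**Figure D5:**
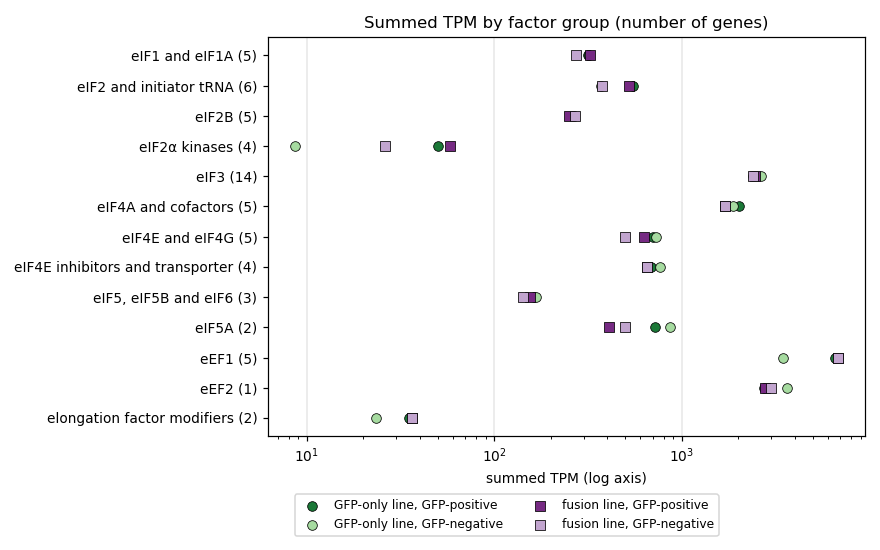
Summed TPM of each factor group in the 4 libraries on a log axis, with the number of genes in brackets. The eIF2α kinases show the widest spread, with 50.03 and 57.8 TPM in GFP-positive cells and 8.67 and 26.2 TPM in GFP-negative cells from the GFP-only and fusion lines; the eEF1 group differs in 1 library, the GFP-negative one of the GFP-only line.

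The constructs were compared in GFP-positive cells, a comparison that leaves the GFP-negative libraries out. GFP-positive cells from the fusion line over those of the GFP-only line were 2-fold or more apart for 4 of 61 genes, Eef1b2, Eif2ak2, Eif3c and Eif4enif1, all higher with the fusion, where 10.6% of all genes passed. The median log2 ratio was -0.03, against 0.05 over all genes. Of the 61 genes, 54 (88.5%) were within 0.5 log2 units, against 74.98% of all genes. The log2 ratios of the 4 genes were 1.94, 1.79, 1.25 and 1.56 in the order named.

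Many translation factor mRNAs begin with a run of pyrimidines, the 5′ terminal oligopyrimidine tract through which mTORC1 and Larp1 set their translation. A run of 8 or more C or T bases beginning with C, on the strand of the gene and between 20 bases before and 40 bases after the RefSeq start, was present in 14 of 49 genes (28.6%), against 19.6% of all symbols. Such a run need not begin at the first base of the mRNA, so a match does not show that a gene carries the tract. Examples are shown from 20 bases before to 20 bases after the start on GRCm38.p6, with the run in capitals: Eif3f at chr7:108934395-108934434 on the plus strand, Eif2s3x at chrX:94212632-94212671 on the minus strand and Eif3l at chr15:79075203-79075242 on the plus strand.
Eif3f: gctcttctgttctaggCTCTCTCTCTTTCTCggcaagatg
Eif2s3x: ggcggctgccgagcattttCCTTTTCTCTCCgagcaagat
Eif3l: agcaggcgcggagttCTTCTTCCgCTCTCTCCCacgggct
Genes with such a run had a median log2 ratio of -0.18 in the GFP-only line, against 0.12 for those without, and 0.01 in the fusion line, against 0.21. Another promoter element, TGCACAC on either strand, was in 2 of 49 genes (4.08%), against 5.02% of all symbols.

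Genes that work with these factors but fall outside the symbol rule were counted in the same way, to be read beside the shares of all genes, 37.4% higher and 5.88% lower in the GFP-only line and 9.52% higher and 3.79% lower in the fusion line. Of 8 termination and recycling genes, 2 (Denr and Mcts1, which together recycle small subunits) were 2-fold or more higher in GFP-positive cells from the GFP-only line, 0 were lower, and 0 passed in the fusion line. Of 9 genes for hypusine and diphthamide synthesis, which modify eIF5A and eEF2, 6 were higher in the GFP-only line. Of these 6, 4 were listed at 0 in its GFP-negative cells, and 0 of the 9 passed in the fusion line. All 6 were diphthamide genes (Dph1, Dph2, Dph5, Dph6, Dph7 and Dnajc24). The hypusine genes Dhps and Dohh did not pass, with log2 ratios of 0.40 and -0.45 in the GFP-only line. Of 16 genes for mRNA activation and mTORC1 signalling, 6 were higher and 1 lower in the GFP-only line, and 1 was higher in the fusion line. The lower one was Pabpc1, the poly-A binding protein, at 71.5 TPM in GFP-positive and 1212 TPM in GFP-negative cells from the GFP-only line, and at 852 TPM in GFP-positive and 829 TPM in GFP-negative cells from the fusion line. The gene higher in both was Paip1, a Pabpc1 partner, at 12.97 and 22.2 TPM in GFP-positive cells from the GFP-only and fusion lines, against 1.52 and 9.10 TPM in GFP-negative cells.

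Around eIF2α, 1 of 11 listed genes was higher (Nck1, an adaptor) and 1 lower (Gcn1l1, the activator of GCN2) in the GFP-only line, and 0 passed in the fusion line. The phosphatase subunit Ppp1r15a, which reverses the kinases, was at 55.6 and 46.7 TPM in GFP-positive cells from the GFP-only and fusion lines, against 39.0 and 29.0 TPM in GFP-negative cells. Atf4, whose mRNA is translated when eIF2α is phosphorylated, was at 189 and 254 TPM in GFP-positive cells, against 186 and 219.5 TPM in GFP-negative cells. Among 9 mitochondrial factors, 6 were higher in the GFP-only line (37.4% of all genes), whose GFP-negative library listed 5 of the 9 at 0, and 1 in the fusion line (9.52%). That gene, Mtif3, a mitochondrial initiation factor, was at 4.80 and 8.44 TPM in GFP-positive cells, against a value listed at 0 in GFP-negative cells from the GFP-only line and 0.963 TPM in those of the fusion line. Of 4 other elongation genes, 1 was higher in the GFP-only line, Gtpbp1, which was listed at 0 in its GFP-negative cells, and 0 passed in the fusion line.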

How the data were processed

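Values are TPM per transcript, deposited by the authors for each library. Per the submitters' processing notes, CASAVA, HISAT2 2.1.0 and StringTie 1.3.5 were used with the build GRCm38 (mm10). Not given in the sources used here are program options, strandedness, annotation release and how listed transcripts were chosen. TPM hold no read counts, so depth is unknown and no counting interval is given.

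Here TPM were summed per symbol, and genes that reached 1 TPM in 2 or more of 4 libraries were kept. Ratios used a pseudocount of 1 TPM. limma 3.58.1 in R 4.3.3 (trend and robust options) was fitted to all genes kept, after being tested on simulated data. In that test no gene given a set difference reached an adjusted p under 0.05 in limma. The count of 0 from this fit therefore does not tell alike genes from different ones. No label ties the lines to separate cultures, and p-values therefore reflect just the spread among 4 libraries, which may be technical. Of 58853 transcripts, 58388 matched GENCODE M21 (GRCm38), which gave types, lengths and positions. Similar transcripts were found with blastn 2.17.0 at 90% identity over 50% of the transcript. Promoters were from RefSeq (GRCm38.p6).

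Members and lists were chosen with earlier results of these data known. Genes were named by rule: those 2-fold apart the same way in both lines, the 2 highest and the 2 with the largest mean ratio in each factor group, those listed at 0, and paralog sets. Eef1b2, Eif3c and other genes outside it, and all transcripts, were chosen after their values were seen. Alternatives covered the pseudocount, scaling, filter, threshold, transcript summary and line term.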

Additional observations from a re-analysis of the deposited data

Results flagged for a closer look

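Eef1b2, which encodes the catalytic subunit of the exchange factor for eEF1A, went in opposite directions in the 2 lines, and the difference between the lines was not tested because each population is 1 library. Its log2 ratio, GFP-positive over GFP-negative, was -2.34 in the GFP-only line and 2.66 in the fusion line. The values were 99.1 TPM in GFP-positive and 507 TPM in GFP-negative cells from the GFP-only line, and 383 TPM in GFP-positive and 59.7 TPM in GFP-negative cells from the fusion line. Different transcripts carried the high values: the coding Eef1b2-204 was at 282 TPM in GFP-negative cells from the GFP-only line and listed at 0 in the other 3 libraries, and Eef1b2-205, marked for nonsense-mediated decay, was at 187 TPM in GFP-positive cells from the fusion line.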

How the results depend on the processing

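The GFP-only line count of 15 genes was 9 with a pseudocount of 5 TPM, 9 under quantile normalization (5 higher and 4 lower, with 2772 of all genes higher and 3072 lower), 8 at a mean of 10 TPM or more and 4 with the GFP-negative library from the fusion line in place of its own. It was 22 with the single highest transcript per gene (17 higher and 5 lower), 21 at a 1.5-fold threshold, 20 with length weighting and 19 with coding transcripts only. The 2 genes higher in GFP-positive cells of both lines (6.58% of all genes) became 0 with a pseudocount of 5 TPM (1.98%), under quantile normalization (2.20%) and at a mean of 10 TPM or more (2.38%). Among genes above 0 in all libraries the count was 1, Eif2ak3 (2.40%). It was 3 at 1.5-fold (11.3%), with the single transcript (7.89%) or with coding transcripts only (8.23%). The count of 0 genes lower in both (0.695% of all genes) became 1, Eif4e, under quantile normalization (1.65%), with the single transcript (1.16%) and at 1.5-fold (1.61%). The fusion line count of 4 (13.3% of all genes) was 8 with the single highest transcript per gene (17.0%) and 9 at a 1.5-fold threshold (24.2%). It was 2 at a mean of 10 TPM or more (6.93%). Eif4a1 was the 1 gene lower in the fusion line with length weighting (log2 ratio -1.52) and with coding transcripts only (-8.62). The construct count of 4 (10.6% of all genes) was 8 with the single transcript and 7 at 1.5-fold, where shares of all genes were not counted. The GFP-only line median of 0.02 was 0.18 with the single transcript, 0.14 with coding transcripts only and 0.18 with the other GFP-negative library. The fusion line median of 0.15 was -0.0098 under median-ratio scaling, 0.0057 under quantile normalization and 0.036 with length weighting. limma called 2 of the 61 genes under quantile normalization, Eif2a and Eif2s2, where it called 342 of all 14379 genes. It called 0 of the 61 under the other settings. Among single genes past 2-fold, Eif2s3y (-0.002086) and Eif3j2 (-0.45) changed sign in the GFP-only line under quantile normalization. Genes short of 2-fold changed sign or came to 0 in 78 values over the settings tried. With length weighting Eif4e changed sign in both lines (0.70 and 0.38, in place of -0.89 and -0.84 in the GFP-only and fusion lines) and Eif4enif1 in the GFP-only line (1.28 in place of -0.53), and with coding transcripts only Eif1ax did so there (0.18 in place of -0.81). The causes were not tested. Settings with a mean of 10 TPM, length weighting, coding transcripts or the exchanged library, and the counts over both lines under each setting, were chosen after seeing the data. The labels give no replicate numbers. The line term of the fit pairs the populations within a line, and without it limma also called 0 of the 61 genes. Leaving out a library was not run, since the fit would have no residual degrees of freedom.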

Other observations

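The named pseudogenes of these genes, left out by the symbol rule, were listed at varied levels. Eif4a-ps4 was near Eif4a1 in GFP-positive cells from the fusion line, at 485 TPM against 501 TPM. Those that follow were listed well below Eif5a or Eif1, the genes they resemble. Eif5al3-ps, on chromosome 5, was at 162 and 179 TPM in GFP-positive cells from the GFP-only and fusion lines, against 151 and 173 TPM in their GFP-negative cells. Eif1-ps1 was at 14.2 and 15.8 TPM in GFP-positive cells, against 10.5 and 11.6 TPM in GFP-negative cells. Eif1-ps3 was at 0.177 TPM in GFP-positive cells from the GFP-only line and listed at 0 in the other 3 libraries.

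A retained-intron transcript of Eef1a1, Eef1a1-206, was at 663 TPM in GFP-negative cells from the fusion line, against 0.149 TPM in its GFP-positive cells, and at 0.142 TPM in GFP-positive and 1.55 TPM in GFP-negative cells from the GFP-only line. Retained-intron transcripts made up 3.18% and 4.69% of the summed TPM of the 61 genes in GFP-positive cells from the GFP-only and fusion lines, and 5.36% and 8.61% in their GFP-negative cells. Over all listed transcripts the shares were 3.49% and 3.61% in GFP-positive cells, and 5.90% and 3.64% in GFP-negative cells. Of the 1434 TPM behind the 8.61%, Eef1a1-206 held 663 TPM. Across the 61 genes, log2(TPM + 1) values of the GFP-negative library from the GFP-only line had correlations of 0.92 to 0.93 with the other libraries, which had 0.96 to 0.98 with each other. The points share library and transcript annotation, and the genes are not independent replicates.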
